A study of Mus musculus with 4 samples.

Results

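The response of the Pla2g10 knockout colon to dextran sulfate sodium (DSS) was read from 2 of the 4 arrays of the study, the pool of knockout colons taken on day 7 of DSS and the pool of untreated (naive) knockout colons. Both were chosen by their titles. Pla2g10 encodes group X secreted phospholipase A2, and the knockout mice lack it (Pla2g10-/-, labelled X-KO). All mice were C57BL/6, and the knockouts are set beside Pla2g10+/+ wildtype mice where that helps. The treated mice drank water with 1% (w/v) DSS up to day 7, and the naive mice received none. The tags of age and sex appear to hold each other's entry and then read 9 weeks and male, while the housing protocol gives an age of 8 weeks. The RNA on an array (200 ng, Cy3) was a mix of 3 colons, all 4 arrays lay on 1 slide, and the spread from mouse to mouse is not visible. With 1 array per condition no difference had a replicate check, no test was made and no p-value is given.

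Group X phospholipase A2 is secreted and cuts phospholipids of membranes and lipoproteins, which frees fatty acids, among them the precursors of prostaglandins and leukotrienes. In the colon the absorptive cells take up sodium, chloride and water, goblet cells make the mucus, and stem cells at the crypt base renew both under Wnt signals. DSS damages this lining, bacteria reach the tissue beneath, and neutrophils and monocytes are recruited from blood by chemokines.

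A relative signal of 1 is the 75th percentile of an array's spots, and every level below is on this linear scale. A ratio is the level with DSS over the naive level in the knockout, given as a fold or as its log2. Rose and fell are used for ratios of at least 2-fold. Where a gene was well above background on only 1 of the 2 arrays its fold is a lower limit, written as at least. In bulk tissue, fewer cells of a type and less RNA per cell cannot be told apart. On the naive array 68.6% of spots were well above background, and on the DSS array 67.8%. Repeat spots of a probe had a median SD of 0.0605 and 0.0571 on the log2 scale, and the scanner's error model gave a median error of 0.204 for a log2 ratio. Both cover the noise of an array only.

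Of 21187 genes measured on the knockout arrays, 1258 rose (5.94%) and 1113 fell (5.25%) at 2-fold with DSS. At 4-fold, 419 genes rose (1.98%) and 169 fell (0.798%), and at 16-fold 58 rose (0.274%) and 5 fell (0.0236%). The ratio of rises to falls thus grew from 2-fold to 16-fold. The median log2 ratio over all genes was -0.13. Of the rises at 2-fold, 299 were lower limits, and of the falls 275. Genes that fell were often dim: 448 of the 1113 had a naive level under 0.1, against 339 of the 1258 risen genes with a DSS level under 0.1. With another background correction and quantile normalization (normexp), 966 genes rose and 544 fell. With no filter on dim probes the balance turned over, with 1745 higher and 2191 lower at 2-fold. Gene lists compiled by cell type or pathway held 1106 entries in 47 lists. Of these entries 1041 were measured, and they cover 983 distinct genes, as some genes are on more than 1 list. The counts of the lists are to be read against the shares above. Among called genes with several probes on the array, all probes moved in the same direction in 338 of 378 (89.4%), and all were past 2-fold in 202.

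**Figure D1:**
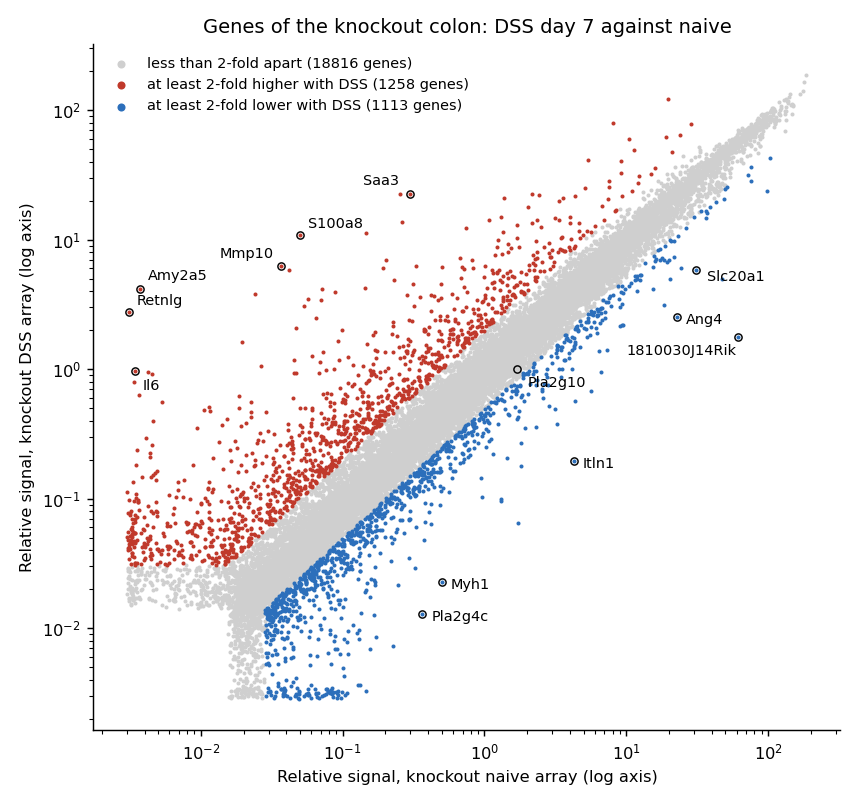
Relative signal of each of the 21187 measured genes on the knockout naive array (x axis) and the knockout DSS array (y axis), both on log axes, 1 point per gene, with ratios of at least 2-fold in red (1258 higher) and blue (1113 lower). The points farthest above the diagonal include S100a8, Mmp10, Saa3, Retnlg and Il6, and the points farthest below it include 1810030J14Rik, Itln1, Myh1 and Pla2g4c.

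Pla2g10 itself, the deleted gene, had a relative signal of 1.7 on the knockout naive array and 0.997 on the knockout DSS array. On the wildtype arrays it was 15.9 and 19.1. Both knockout values lay below both wildtype values, but the sources used here do not say if the probe is inside the deleted stretch. The colon markers Car1, a carbonic anhydrase of colonocytes (113 naive, 78.4 with DSS), and Muc2, the main gel mucin of goblet cells (84.3 naive, 46.7 with DSS), were well above background on both knockout arrays.

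The promoters of 5 leading risers are shown because their first bases before the start site hold short motifs of inflammatory transcription factors. All are RefSeq promoters of GRCm38.p6, 250 bases before to 50 after the start, 5′ to 3′ on the gene's strand. Of the 27 genes with the highest ratios, 23 have a promoter in the table used. In the 3 metalloproteinase promoters, all on the + strand of 1 stretch of chromosome 9 (Mmp3 at chr9:7445572-7445871, Mmp10 at chr9:7502092-7502391, Mmp13 at chr9:7272264-7272563), capitals mark the AP-1 motif TGANTCA, which reads the same on both strands. In Cxcl1 (chr5:90890995-90891294, + strand) and Il6 (chr5:30012864-30013163, + strand), capitals mark matches of the NF-kB motif on either strand, 2 overlapping ones in Cxcl1.
Mmp3: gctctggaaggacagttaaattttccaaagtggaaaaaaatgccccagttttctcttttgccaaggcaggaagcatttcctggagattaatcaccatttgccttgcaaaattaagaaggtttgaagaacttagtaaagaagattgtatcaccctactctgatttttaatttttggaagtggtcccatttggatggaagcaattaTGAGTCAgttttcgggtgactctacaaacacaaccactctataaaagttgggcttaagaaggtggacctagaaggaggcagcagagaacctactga
Mmp10: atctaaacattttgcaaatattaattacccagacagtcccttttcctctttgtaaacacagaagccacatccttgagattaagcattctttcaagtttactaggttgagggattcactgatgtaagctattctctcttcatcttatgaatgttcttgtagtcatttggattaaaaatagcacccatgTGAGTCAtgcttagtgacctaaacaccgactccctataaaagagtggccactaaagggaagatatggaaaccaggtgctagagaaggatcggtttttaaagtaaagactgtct
Mmp13: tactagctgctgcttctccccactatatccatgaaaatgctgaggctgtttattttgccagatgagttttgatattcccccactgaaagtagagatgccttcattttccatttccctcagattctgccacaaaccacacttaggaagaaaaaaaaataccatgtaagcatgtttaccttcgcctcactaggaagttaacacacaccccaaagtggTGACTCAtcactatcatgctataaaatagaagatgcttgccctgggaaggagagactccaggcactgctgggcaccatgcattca
Cxcl1: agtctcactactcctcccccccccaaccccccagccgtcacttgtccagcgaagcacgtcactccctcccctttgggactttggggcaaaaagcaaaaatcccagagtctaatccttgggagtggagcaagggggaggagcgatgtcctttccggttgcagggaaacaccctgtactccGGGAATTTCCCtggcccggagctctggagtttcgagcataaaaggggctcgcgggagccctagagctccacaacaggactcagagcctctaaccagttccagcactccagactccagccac
Il6: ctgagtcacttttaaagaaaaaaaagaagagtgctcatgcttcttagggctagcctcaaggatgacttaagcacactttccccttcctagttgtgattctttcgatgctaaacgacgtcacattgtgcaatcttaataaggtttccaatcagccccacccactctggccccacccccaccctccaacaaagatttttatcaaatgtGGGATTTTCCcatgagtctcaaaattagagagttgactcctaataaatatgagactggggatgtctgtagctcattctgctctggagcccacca
The AP-1 match begins at base -46 from the start in Mmp3, -63 in Mmp10 and -35 in Mmp13, and the NF-kB match at -44 in Il6 and -71 in Cxcl1. AP-1 motifs lay in 5 of the 23 promoters (21.7%), against 7.93% of all 27025 promoters of that length, and also in 3 of the 14 available promoters among the genes with the lowest ratios (21.4%). NF-kB motifs lay in 3 of 23 (13%), against 4.35% of all promoters, and in 0 of the 14. The C/EBP motif TTNNGNAAT, on both strands, lay in 8 of 23 (34.8%), against 11.6% of all promoters and 1 of 14. The STAT motif TTCNNNGAA lay in 1 of 23 (8.47% of all) and the E-box CACGTG in 0 (7.24% of all). These are letter matches in short windows, on genes picked for their ratios, and show no binding.

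Genes of neutrophils, the first leukocytes to enter injured mucosa, were among those with the highest ratios. Of 30 measured neutrophil markers, 19 rose and 0 fell, and the median log2 ratio was 2.43. S100a8, which forms calprotectin with S100a9, was at 0.0503 in naive and 10.9 in DSS colon, 216-fold apart. S100a9 itself went from 0.254 to 22.5 (88.4-fold). Retnlg, which encodes a resistin-like secreted protein, was not well above background in naive colon and reached 2.76 with DSS, at least 179-fold higher. Lcn2, lipocalin 2, which binds bacterial siderophores, was 0.191 in naive and 6.05 in DSS colon (log2 4.98). The formyl peptide receptors Fpr1 and Fpr2, which sense bacterial peptides, had log2 ratios of 4.38 and at least 4.93. The chemokine receptor Cxcr2 stood at 0.112 with DSS and was not well above background without it (at least 2.86 on the log2 scale).

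The rise did not extend over the whole neutrophil list. Elane and Mpo, enzymes of primary granules that are transcribed mainly in bone marrow, had log2 ratios of -0.34 and at least 0.16. Camp, a cathelicidin, stood at 0.29, and Ly6g, a surface marker, at 0.80 (2.79 naive, 4.85 with DSS). Csf3r, the receptor of the growth factor G-CSF, was 39.3 in naive and 29.1 in DSS colon (log2 -0.43). The other 29 markers together summed to only 8.35 in naive and 58.5 in DSS colon. Whether the Csf3r probe reads neutrophil RNA was not tested. Cd177 (0.03) and Trem1 (-0.26), surface proteins of mature neutrophils, were under 2-fold as well. Among probes well above background on all 4 arrays the list's median was 0.94.

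Macrophage and monocyte markers rose more evenly, 20 of 24 with 0 falls and a median log2 ratio of 1.88. Chil3, a chitinase-like lectin of activated macrophages (Chi3l3 on the array), went from 0.024 in naive to 3.8 in DSS colon (158-fold). Ccr2, by which monocytes leave the blood, went from 0.0498 to 0.502 (log2 3.33). Arg1, an arginine-degrading enzyme, had a log2 ratio of 2.26 and Spp1, osteopontin, of at least 2.66. The lysosomal marker Cd68 was 0.691 in naive and 2.83 in DSS colon, and Adgre1, which encodes F4/80, was 0.382 and 1.25. All of these were higher on the DSS array. Itgam (log2 -0.19), Cx3cr1 (0.41) and Mertk (-0.69), the last an uptake receptor for dying cells, stayed under 2-fold.

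Receptors for immunoglobulin G stood out within the myeloid genes, as seen after the values were known. Of 5 measured genes with the symbol Fcgr, the 4 classical receptors rose. Fcgr4 went from 0.149 to 1.55 (log2 3.38), Fcgr3 from 0.118 to 1.07 (3.18), Fcgr2b, the inhibitory receptor, from 0.227 to 1.37 (2.59), and Fcgr1 from 0.129 to 0.446 (1.79). Fcgrt, the neonatal receptor that carries immunoglobulin G across epithelium, had a log2 ratio of 0.32. Of 21 C-type lectin genes 8 rose. Clec4e, which senses glycolipids of mycobacteria and damaged cells, was at least 61.2-fold higher with DSS, and its relative Clec4d went from 0.0263 to 1.05 (39.8-fold).

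The other leukocyte lists had lower medians. Of 10 dendritic cell markers 3 rose (median log2 0.66), among them Cd209a (1.79) and Batf3 (1.12). Of 16 T and NK cell markers 3 rose and 1 fell (median 0.37): Gzmb, granzyme B of cytotoxic cells, went from 0.122 to 0.401 (1.72), Il2ra had a log2 ratio of 1.10 and Cd3d of 1.09. Nkg7, a granule protein of cytotoxic cells, fell from 4.13 to 1.78 by its brightest probe (-1.21), but its dimmest probe stood at 1.06. The T cell genes Cd3e (-0.19) and Cd4 (-0.14) were under 2-fold. None of the 15 B and plasma cell markers passed 2-fold in either direction (median 0.15), with Jchain, which joins IgA dimers, at 28.2 naive and 25.8 with DSS. Of 14 mast cell and eosinophil genes 8 rose (median 1.37, and 0.83 for probes well above background on both knockout arrays). The mast cell proteases Mcpt1 (0.0242 naive, 0.2 with DSS, log2 3.04), Mcpt4 (2.68) and Mcpt2 (at least 3.47) were among them, as was Il5ra, the eosinophil interleukin 5 receptor (2.60). The highest ratio of the list, that of Hdc (4.20), belongs to a gene that is also on the neutrophil list. Kit (-0.76), Siglecf (-0.20), Tpsb2 (0.24), Prg2 (0.54) and Gata2 (0.83) were under 2-fold.

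Erythrocyte genes, which report on blood in the tissue, moved with these lists. Of 10 measured, 8 rose and 1 fell, with a median log2 ratio of 2.85, and the summed relative signal was 73.3 naive and 137 with DSS. Much of that sum is Car2, which the list shares with epithelium and which fell (-1.23). Without Car2 the sum was 24.7 naive and 117 with DSS in the knockout, and 24.9 and 43.6 in wildtype, so it was higher with DSS in both. The beta globin Hbb-b1 went from 1.38 to 21.2 (3.94), the alpha globin Hba-a1 from 2.43 to 22.1 (3.18) and Alas2, the erythroid heme synthesis enzyme, from 0.0444 to 0.596 (3.75). The wildtype log2 ratios were 1.54 for Hbb-b1, 1.16 for Hba-a1 and 1.09 for Alas2. The part of blood in the leukocyte results was not tested.

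**Figure D2:**
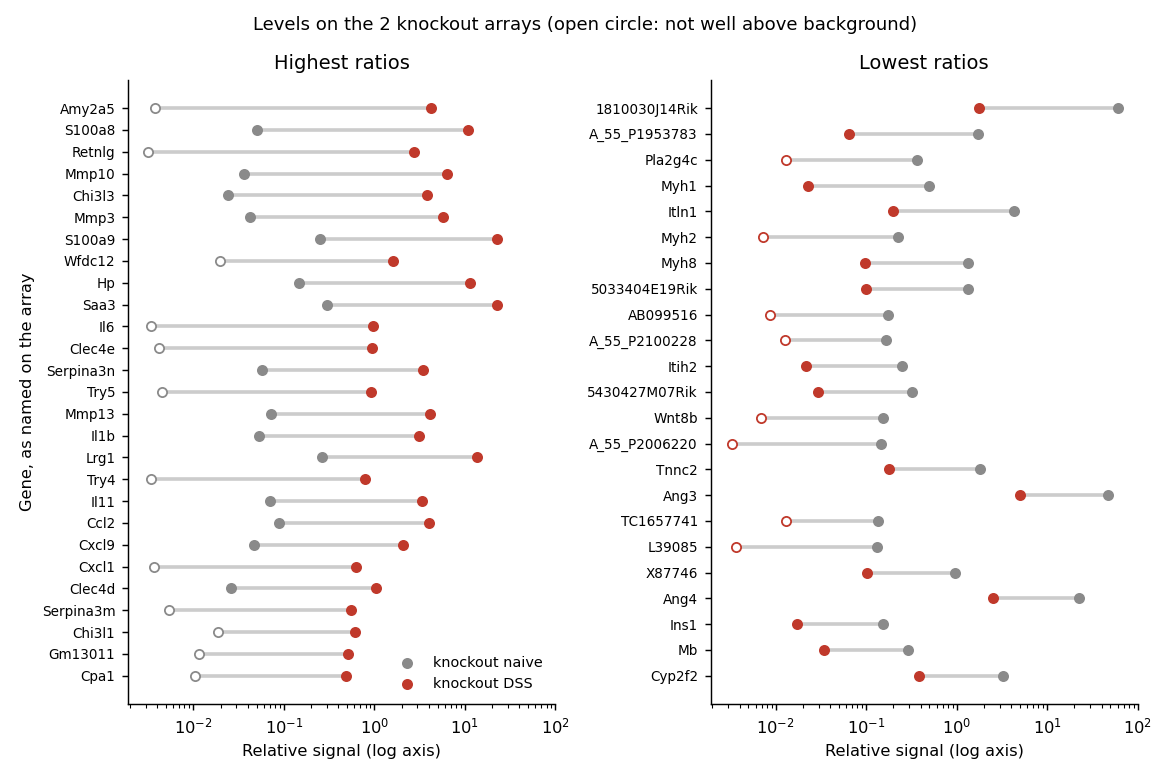
Relative signal (log axis) on the knockout naive (grey) and knockout DSS (red) arrays for the 27 genes with the highest ratios (left) and the 23 with the lowest (right), named as on the array; a line joins the 2 values of a gene, and open circles are not well above background. S100a8 spans 0.0503 to 10.9, and 1810030J14Rik spans 61.3 to 1.78.

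Chemokine ligands, the attractants of these cells, rose in 22 of 30 cases with 0 falls, and their median log2 ratio was 2.40. Cxcl1, Cxcl2 and Cxcl3, which draw neutrophils, were not well above background in naive colon. Cxcl1 was at least 41.2-fold higher with DSS (0.635), Cxcl2 at least 4.07 and Cxcl3 at least 4.25 on the log2 scale, and Cxcl5 went from 0.202 to 6.93 (5.10). Of the monocyte attractants, Ccl2 went from 0.0881 to 3.98 (45.1-fold) and Ccl7 from 0.0988 to 2.02 (4.35). Cxcl9, induced by interferon gamma, went from 0.0471 to 2.08 (44.2-fold). The lymphoid chemokines Cxcl13, for B cells, and Ccl19, for T cells and dendritic cells, had log2 ratios of 2.59 and 2.40. Ccl28 (-0.31), Ccl25 (-0.37) and Cx3cl1 (-0.39) were under 2-fold. The probe of Cxcl11 read 87.6 in naive and 59.5 in DSS colon (-0.56). NF-kB motifs lay in 6 of the 24 chemokine promoters in the table (25%), again against 4.35% of all.

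Of 30 inflammatory cytokine genes 16 rose and 0 fell (median log2 1.06). Il1b went from 0.0536 to 3.1 (57.8-fold) and Il11, an interleukin 6 family cytokine of stromal cells, from 0.0703 to 3.41 (48.5-fold). Il6 was at least 62.3-fold higher with DSS. Tnf went from 0.0298 to 0.332 (3.48), and Il33, an alarmin of stromal cells in mouse, from 0.226 to 2.32 (3.36). Ereg, an epidermal growth factor receptor ligand, had a log2 ratio of 3.84, while its relative Areg had 0.68. The T cell cytokines Ifng and Il17a were measured with DSS only, at 0.211 and 0.0928 (at least 3.77 and 2.59). Il22, which drives epithelial defence genes, went from 0.0367 to 0.106 (1.53). Il17f (-0.79) and Il24 (-0.76) lay below 0 and under 2-fold. Il18, made by the epithelium, read 6.51 naive and 10.1 with DSS (0.64).

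Acute-phase and serum-type proteins had the highest median of the 47 lists, 3.07, with 16 of 20 risen and 0 fallen. These rises include Serpina3n, Serpina3m, Serpina3g and Serpina3f, which are counted again in the Serpina3 family below, and C3 of the complement list. Haptoglobin (Hp), which binds free hemoglobin, went from 0.147 to 11.3 (76.9-fold). The serum amyloid Saa3 went from 0.3 to 22.6 (75.3-fold) and Lrg1, a leucine-rich glycoprotein of the acute phase, from 0.263 to 13.7 (51.9-fold). Saa1 (67.5 naive, 70.1 with DSS) and Saa2 (44 naive, 45.5 with DSS) belong to the same family and lay within 0.06 of 0 on the log2 scale. Serum amyloid genes therefore split, with Saa3 alone past 2-fold among these 3. Lbp, the carrier of bacterial lipopolysaccharide, went from 0.0865 to 1.01 (3.54), and ceruloplasmin (Cp) from 0.227 to 2.17 (3.26).

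The Serpina3 cluster of protease inhibitors stood out when families were grouped by symbol after the values were seen. Of 9 measured members 8 rose, and the family's median log2 ratio was 3.20 (2.12 to 4.01 over the other ways of processing). Serpina3n, an inhibitor of leukocyte proteases, went from 0.057 to 3.45 (60.7-fold) and Serpina3g from 0.494 to 4.54 (3.20). Serpina3m was at least 36.1-fold higher, and Serpina3b alone did not rise (-0.42). These are close copies of a multigene family, and a probe may read more than 1 of them.

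Matrix metalloproteinases and their inhibitors rose in 13 of 21 cases with 0 falls (median 1.54). The stromelysins Mmp10 and Mmp3 went from 0.0367 to 6.3 (171-fold) and from 0.042 to 5.8 (138-fold). The collagenase Mmp13 went from 0.0714 to 4.16 (58.3-fold). All 3 rose in wildtype colon as well, Mmp10 by 40.4-fold, Mmp3 by 37-fold and Mmp13 by 15.3-fold. These are the genes whose promoters are shown above with an AP-1 motif, which lay in 4 of the 18 available promoters of the list (22.2%), the other being Mmp7. Adamts4, which cuts the proteoglycan aggrecan, went from 0.0648 to 2.49 (5.27). Timp1, an inhibitor of these enzymes, went from 0.33 to 6.31 (4.26), whereas Timp2 (0.06), Timp3 (0.57) and Timp4 (-0.79) were under 2-fold. The membrane-bound Mmp14 (0.59), Mmp15 (-0.45) and Mmp17 (-0.22) were under 2-fold too. The high ratios were those of secreted enzymes and of Timp1.

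In the plasminogen and clotting list 9 of 21 rose and 0 fell (median 0.73). The plasminogen activators Plau, or urokinase, went from 0.0322 to 0.152 (2.24) and Plat, the tissue type, from 0.103 to 0.442 (2.10). Plaur, the receptor of urokinase, went from 0.576 to 2.01 (1.80). Both activators and the receptor were higher with DSS. Anxa2 and S100a10, which bind plasminogen on cells, had log2 ratios of 0.03 and 0.41, and tissue factor F3 of 0.09.

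All 15 measured fibroblast markers lay above 0, 9 of them past 2-fold, with a median of 1.14. Grem1, an antagonist of bone morphogenetic proteins made by crypt-base stroma, went from 1.71 to 10.4 (2.60), and Pdpn, podoplanin, from 0.989 to 5.1 (2.37). Of the 37 collagen and cross-linking genes 11 rose and 0 fell (median 0.66). The fibrillar collagens Col1a1 (4.95 naive, 10.9 with DSS, 1.14) and Col3a1 (12.2 naive, 27.2 with DSS, 1.16) rose, and Col1a2 stood at 0.76. Lox, which cross-links collagen, was at least 3.12 on the log2 scale and its relatives Loxl1 and Loxl2 were both at 1.52. Fibronectin (Fn1, -0.20), periostin (Postn, 0.07) and tenascin C (Tnc, 0.27) did not pass 2-fold.

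Endothelial genes rose in 12 of 17 cases with 0 falls (median 1.17, and 0.95 with normexp). The adhesion molecules that stop leukocytes on vessel walls led them. P-selectin (Selp) went from 0.0262 to 0.32 (3.61), Madcam1, the mucosal addressin, from 0.287 to 1.7 (2.57), and Vcam1 from 0.474 to 1.98 (2.06). Icam1 was at least 2.48. Of other endothelial genes, the angiopoietin receptor Tek (1.26) and the claudin Cldn5 (1.17) rose, while Cdh5 (0.95), Vwf (0.85), Plvap (0.69), Pecam1 (0.34) and Kdr (-0.41) were under 2-fold.

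Of 22 complement genes 16 rose and 1 fell (median 1.55). C3, the central component, went from 5.39 to 41.2 (2.93) and C4b from 2.32 to 9.72 (2.07). The C1 subunits C1qa (1.99), C1qb (1.98), C1qc (1.68), C1ra (1.93) and C1s (1.59) all rose. The single fall was C5, from 0.289 to 0.108 (-1.43). C6, like C5 a component of the late cascade, rose from 0.0236 to 0.0537 (1.19).

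Interferon-induced genes rose in 21 of 38 cases with 0 falls (median 1.29), but in a divided way. The chemokines Cxcl9 and Cxcl10 (0.23 naive, 4.87 with DSS, 4.40), Ido1, which degrades tryptophan (0.0451 naive, 0.93 with DSS, 4.37), and the GTPases Iigp1 (2.90), Igtp (2.65) and Gbp2 (2.48) had high ratios. All of these can be induced by interferon gamma. The antiviral genes of type I interferon Mx1 (0.09), Oas1a (-0.20), Irf7 (-0.41) and Rsad2 (0.48) were under 2-fold, while Ifit2 (2.42) and Isg15 (1.34) rose. Of 14 class II antigen presentation genes 8 rose and 0 fell (median 1.14), including H2-Aa (1.35 naive, 5.24 with DSS, 1.95) and the invariant chain Cd74 (7.45 naive, 20.5 with DSS, 1.46). Their shared regulator Ciita had 0.86.

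Of 26 pattern recognition receptor genes 6 rose and 0 fell (median 0.42), and apart from Cd14 (1.49), Mefv (2.41), Tlr6 (1.10) and the lectins Clec4e, Clec7a (2.47) and Clec4n (2.25) all were under 2-fold. Of 25 NF-kB target and immediate early genes 7 rose and 0 fell (median 0.26). Socs3, a brake on cytokine signals, went from 1.35 to 11.5 (3.10) and Socs1 from 0.311 to 1.36 (2.13). The AP-1 subunit genes Fos (-0.54), Jun (-0.37), Junb (0.25) and Fosl1 (0.15) were under 2-fold, as were Nfkb1 (0.26), Relb (-0.21) and Nfkbia (0.39), while the C/EBP factor genes Cebpb (2.28 naive, 5.16 with DSS, 1.18) and Cebpd (10.9 naive, 23.8 with DSS, 1.12) rose.

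**Figure D3:**
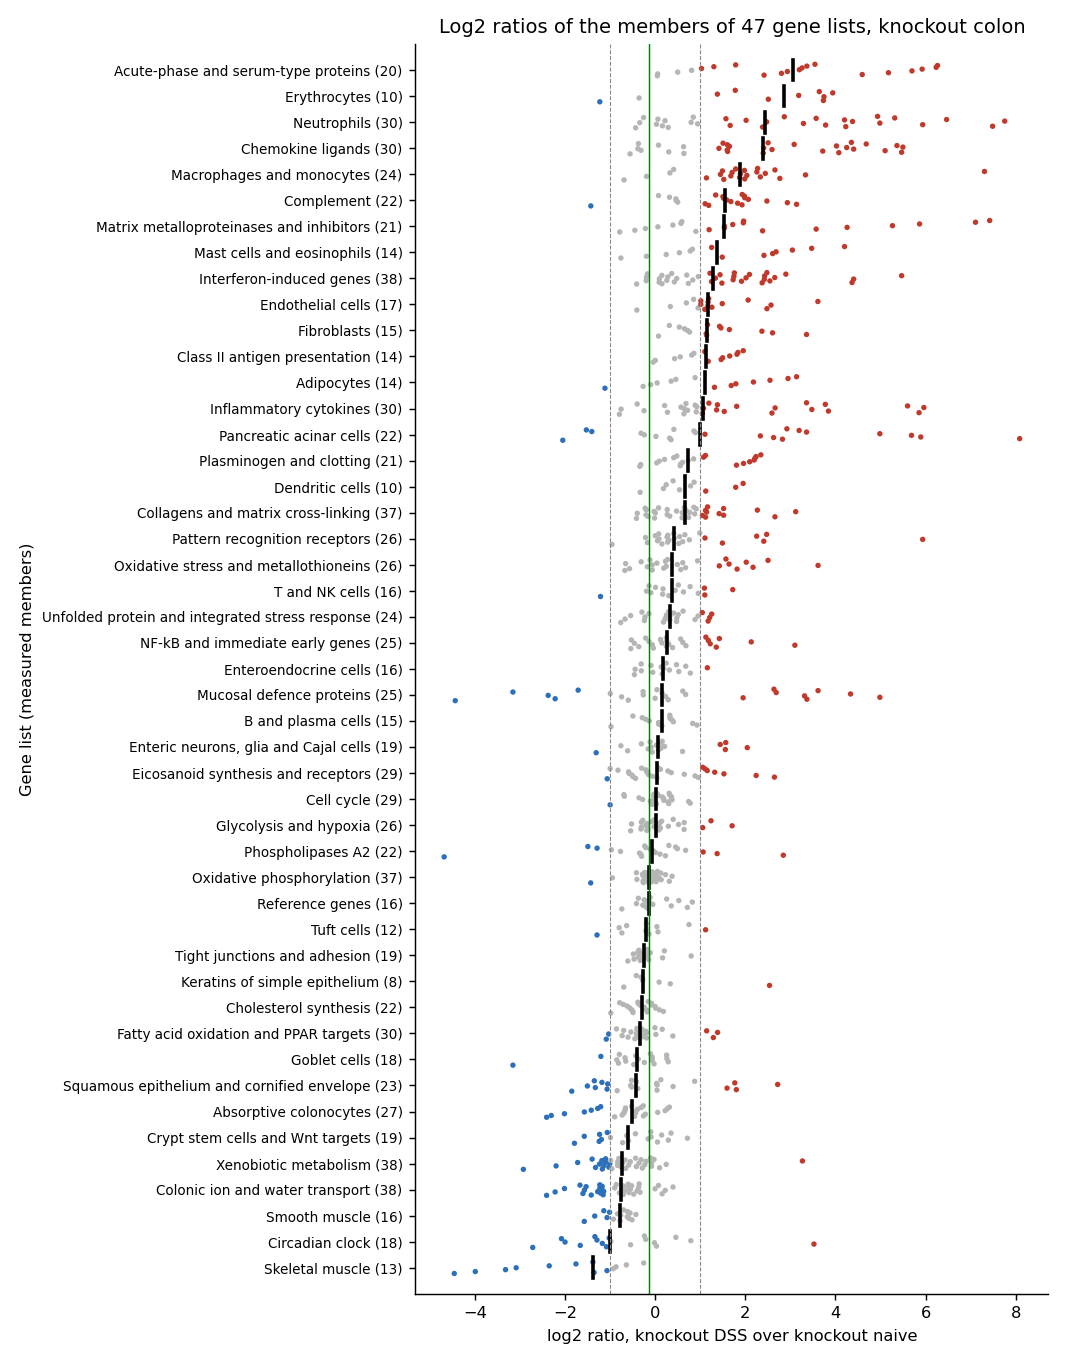
Log2 ratio of knockout DSS over knockout naive (x axis) for each measured member of 47 gene lists (rows, number of measured members in brackets); red and blue points are past 2-fold, black bars are list medians, dashed lines mark 2-fold and the green line the median of all genes (-0.13). Medians run from -1.38 for skeletal muscle to 3.07 for acute-phase proteins.

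Among mucosal defence proteins 8 of 25 rose and 5 fell (median 0.15), so the list moved in both directions. Reg3g and Reg3b, lectins that kill or repel bacteria, went from 8.06 to 80.1 (3.31) and from 19.8 to 123 (2.63). Slpi, an inhibitor of neutrophil elastase, went from 2.17 to 22.3 (3.37) and Nos2, inducible nitric oxide synthase, from 0.501 to 6.14 (3.61). Duoxa2, the partner of the oxidase Duox2, went from 1.44 to 5.55 (1.95), while Duox2 itself stood at 0.61. Dmbt1, a scavenger glycoprotein of the lining, had 187 naive and 186 with DSS.

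The falls of that list were large. Itln1, intelectin 1, a lectin that binds bacterial sugars, went from 4.25 to 0.196 (21.7-fold lower). Ang4, a bactericidal ribonuclease, went from 22.6 to 2.54 (8.92-fold lower), Ang from 7.32 to 1.41 (log2 -2.37) and Reg4 from 6.25 to 1.91 (-1.71). The whole angiogenin family fell: all 4 measured members did, with Ang3 at 47.4 naive and 4.97 with DSS (9.54-fold lower) and Ang2 at 4.34 and 0.571 (-2.93). The family's median was -3.04, and between -3.05 and -2.90 over the other ways of processing. As close copies, the 4 may share signal. The largest fall of all genes measured on both arrays was that of 1810030J14Rik, the mucosal pentraxin Mptx1, from 61.3 to 1.78 (34.5-fold lower). Both wildtype arrays were high by comparison, at 47 and 21.4.

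Colonic ion and water transport genes fell together, 16 of 38, with 0 rises and a median of -0.77, and 34 of the 38 lay below 0. Sodium and chloride uptake genes were among them. Slc26a3, the chloride-bicarbonate exchanger, went from 20.2 to 5.01 (-2.01), its partner Slc9a3, the sodium-proton exchanger, from 21.7 to 7.29 (-1.57), and Scnn1a, a subunit of the epithelial sodium channel, from 9.26 to 3.2 (-1.53). The water channel Aqp8 went from 75.5 to 28.2 (-1.42), while Aqp4 held 8.48 and 8.46. Slc20a1, a sodium-phosphate carrier, went from 31.1 to 5.85 (-2.41). Calcium and magnesium handling fell too: S100g, the calcium-binding calbindin, from 6.46 to 1.39 (-2.22), the calcium channel Trpv6 from 0.624 to 0.205 (-1.60) and the magnesium channel Trpm6 from 4.72 to 1.49 (-1.67). The chloride secretion genes Cftr (-1.14) and Best2 (-1.28) fell, and Slc12a2, which feeds chloride to Cftr, stood at -0.68. Atp1b1, a subunit of the sodium pump, lay below 0 and under 2-fold (-0.60).

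Other epithelial lists lay below 0 with fewer falls. Of 27 absorptive colonocyte markers 7 fell and 0 rose (median -0.52), the peptide carrier Slc15a1 among them (0.561 naive, 0.113 with DSS, -2.31), and their summed signal was 1137 naive and 747 with DSS. Car1, Krt20 (-0.31), Vil1 (-0.43) and the guanylin gene Guca2a (148 naive, 93.7 with DSS, -0.66) were under 2-fold. Of 18 goblet cell genes Ang4 and Fcgbp, a mucus protein (72.4 naive, 31.4 with DSS, -1.21), fell and 0 rose (median -0.40). Muc2 had -0.85, Tff3, the trefoil peptide, 68.1 naive and 65.2 with DSS, and Clca1 -0.48. The simple-epithelium keratins Krt8 (122 naive, 101 with DSS) and Krt18 (67.3 naive, 50.3 with DSS) were under 2-fold, and of that list of 8 only Krt36 rose (0.108 naive, 0.625 with DSS, 2.54), with a median of -0.28. None of 19 tight junction and adhesion genes passed 2-fold (median -0.26). Cldn8, a sealing claudin, had 0.80 and Ocln, occludin, -0.61. The medians of the junction and keratin lists thus lay nearer 0 than that of the transport list.

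Stem cell and Wnt target genes fell in 6 of 19 cases with 0 rises (median -0.59). The crypt-base genes led: Ascl2 went from 2.65 to 0.764 (-1.79) and Lgr5 from 0.479 to 0.161 (-1.57). The Wnt feedback genes Axin2 (-1.23), Rnf43 (-1.24) and Znrf3 (-1.06) and the progenitor factor Sox9 (-1.19) fell. Nkd1 (0.72), Cd44 (0.29), Myc (0.14) and Smoc2 (5.21 naive, 5.39 with DSS) did not. Of 29 cell cycle genes 0 rose and 1 fell (median 0.03): Cdkn1a, which halts the cycle, was 5.66 naive and 2.83 with DSS by its brightest probe (-1.0) but 0.44 by its dimmest. Mki67, a marker of dividing cells, had 8.17 naive and 5.08 with DSS (-0.69), Pcna 0.37 and Top2a -0.03.

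Xenobiotic metabolism genes fell in 13 of 38 cases with 1 rise (median -0.74). The nuclear receptor Nr1i3, or CAR, went from 0.145 to 0.019 (-2.93), and its classical target Cyp2b10 was not well above background with DSS (at least 2.20 lower on the log2 scale). The drug pump Abcb1a went from 18.4 to 6.98 (-1.40) and Aldh1a1, which makes retinoic acid, from 36.6 to 14.6 (-1.32). The single riser was Cyp2e1, which oxidises ethanol and is also made by fat tissue, from 0.318 to 3.07 (3.27). Over all 69 measured genes with a Cyp symbol 22 fell and 6 rose (median -0.47). Members of the Cyp2c and Cyp2d subfamilies made up most of the falls: Cyp2c68 went from 6.58 to 0.95 (-2.79), Cyp2c67 from 9.47 to 2.18 (-2.12) and Cyp2d11 from 12.5 to 5.31 (-1.23). Cyp2f2, a monooxygenase outside both, went from 3.22 to 0.38 (8.48-fold lower). The brightest Cyp2c genes, Cyp2c55 (44.6 naive, 28.1 with DSS, -0.67), Cyp2c66 (-0.08) and Cyp2c65 (-0.10), were under 2-fold. Of 13 carboxylesterases 6 fell and 1 rose (median -0.99), and of 299 solute carriers 33 fell and 14 rose (median -0.24). The families were again grouped after the values were seen, and close copies among them may share signal.

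**Figure D4:**
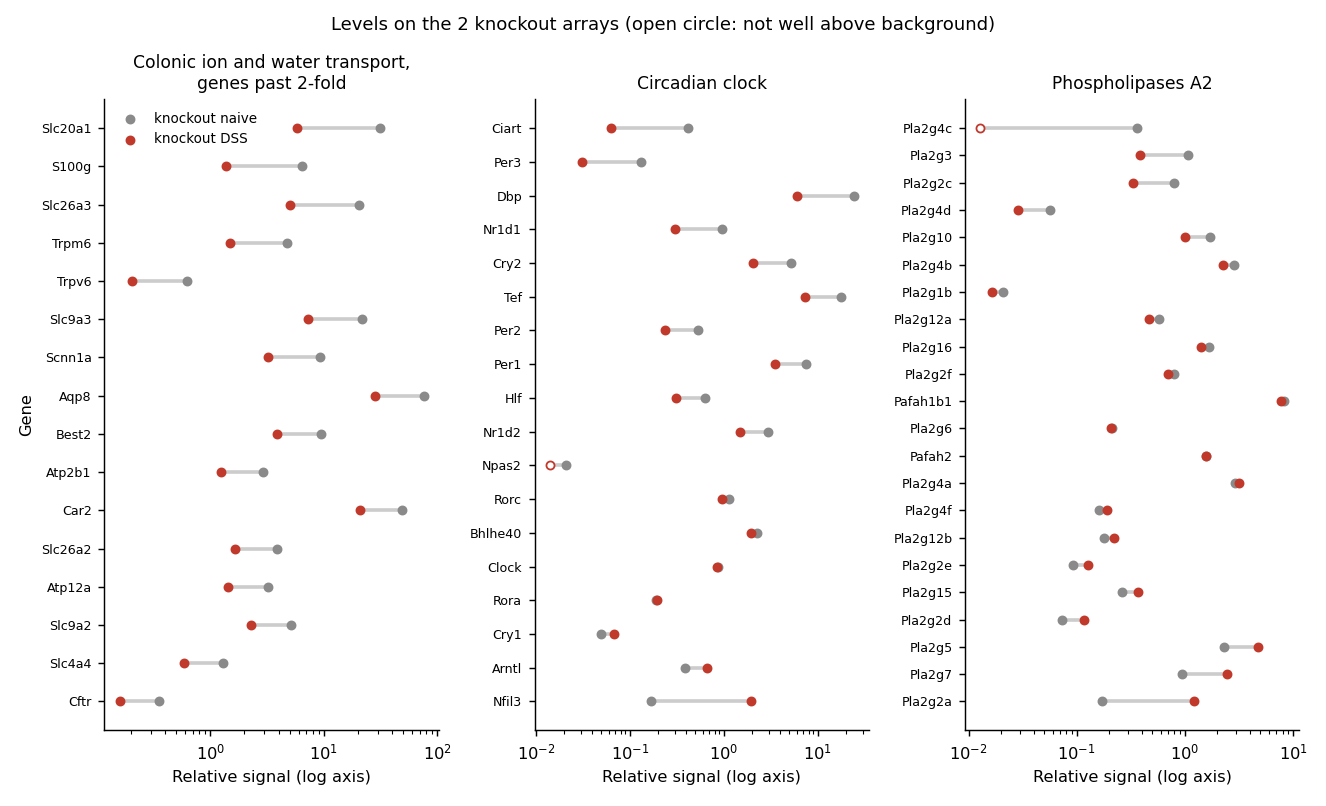
Relative signal (log axis) on the knockout naive (grey) and knockout DSS (red) arrays for the 16 transport genes past 2-fold and for all measured genes of the clock and phospholipase A2 lists, ordered by ratio; open circles are not well above background. All 16 transport genes lie lower with DSS, as do 14 of 18 clock genes and 12 of 22 phospholipase A2 genes.

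Circadian clock genes had a median of -1.0, with 9 of 18 fallen and 1 risen. Dbp, an output factor, went from 24.2 to 6.05 (-2.0), Ciart from 0.418 to 0.0635 (-2.72) and Per3 from 0.131 to 0.0311 (-2.08). Per1 (-1.08), Per2 (-1.17), Cry2 (-1.34), Tef (-1.29) and the repressor Nr1d1 (-1.66) fell as well. The riser was Nfil3, which opposes Dbp (0.168 naive, 1.93 with DSS, 3.52), and the activator Arntl stood at 0.79. Clock had 0.86 naive and 0.848 with DSS. Most output and repressor genes of the clock were thus lower. E-box motifs lay in 5 of the 16 available promoters of the list (31.2%), against 7.24% of all, among them Per1 and Tef. The wildtype median was -0.96, with 9 fallen and 1 risen of 19. The sources used here do not give the hour of sampling.

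Muscle genes were lower with DSS. All 16 smooth muscle genes lay below 0 and 5 fell (median -0.77), among them the myosin heavy chain Myh11 (7.05 naive, 2.78 with DSS, -1.34), the gamma actin Actg2 (76.3 naive, 36.4 with DSS, -1.07) and Synm (-1.57). Ano1, the chloride channel of the pacemaker cells of Cajal, went from 17.3 to 6.99 (-1.31), while Kit stood at -0.76. Genes of skeletal muscle, which is not part of the colon wall, were measured in the naive pool and fell in 9 of 13 cases, with 0 rises and a median of -1.38. Myh1, a fast myosin, went from 0.5 to 0.0227 (22-fold lower), Tnnc2, fast troponin C, from 1.8 to 0.18 (9.99-fold lower) and Mb, myoglobin, from 0.293 to 0.0345 (8.49-fold lower). The list's summed signal was 8.04 naive and 2.64 with DSS, and 5.89 and 4.5 on the wildtype arrays. How much the muscle taken with each colon bears on these falls was not tested.

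In the list of enteric neurons, glia and Cajal cells 4 of 19 rose and 1 fell (median 0.07). Gfap, a filament of glia, went from 0.0419 to 0.173 (2.04), and the neuropeptides Tac1, substance P, from 3.46 to 10.3 (1.57) and Vip from 0.801 to 2.36 (1.56). The pan-neuronal genes Snap25 (-0.09), Uchl1 (0.16) and Elavl4 (-0.16) were under 2-fold. Nos1 rose by its brightest probe (1.44) and not by its dimmest (-0.43). Of 16 enteroendocrine genes only the hormone Cck rose (1.33 naive, 2.97 with DSS, 1.16), 0 fell, and the median was 0.17. Of 12 tuft cell genes 1 rose and 1 fell (median -0.19). The cation channel Trpm5 fell (0.154 naive, 0.0628 with DSS, -1.29), and Dclk1 rose by its brightest probe (1.12) but had -0.79 by its dimmest.

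Markers of other tissues were measured in the knockout pools, though not all of them in both. The classical pancreatic enzymes Amy2a5, Try5, Try4 and Cpa1 were not well above background in the naive pool. Of 22 pancreatic acinar genes 11 rose and 3 fell (median 1.00, and 0.32 for probes well above background on both knockout arrays). The amylase Amy2a5 was at least 272-fold higher with DSS (4.19), the highest fold of all genes. The trypsinogens Try5 and Try4 were at least 59.4-fold and 51.5-fold higher. In the same list Sycn went from 97.7 to 23.6 (-2.05), Clps from 5.61 to 2.12 (-1.41) and Cela1 from 6.56 to 2.27 (-1.53). Without Sycn and Zg16, the latter also made by goblet cells, the list summed to 13 naive and 13.4 with DSS. The wildtype pool with DSS held more of the classical enzymes, with Amy2a5 at 13.2 and a list median of 2.84. Of 14 adipocyte genes 7 rose and 1 fell (median 1.10), led by adipsin (Cfd, 2.03 naive, 17.9 with DSS, 3.14) and Adipoq (0.138 naive, 1.07 with DSS, 2.95), and the sum was 28.3 naive and 50.04 with DSS. Cfd also counts among the complement rises above. The part of pancreas and fat in other results was not tested.

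Squamous epithelium genes, which belong to the anal canal and skin, split. Of 23 measured, 4 rose and 7 fell (median -0.42). The basal keratins Krt5 (0.647 naive, 2.25 with DSS, 1.80) and Krt14 (0.294 naive, 1 with DSS, 1.77) rose. Of the genes of cornified layers, Lor, loricrin (0.33 naive, 0.159 with DSS, -1.05), Krt1 (0.0645 naive, 0.0308 with DSS, -1.07) and Lce3a (0.129 naive, 0.0359 with DSS, -1.85) fell. Sprr2h, a cornified envelope gene, rose (0.07 naive, 0.46 with DSS, 2.72), so the cornified genes themselves were divided. In wildtype colon the median of this list was 0.88.

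The metabolic and stress lists had medians between -0.33 and 0.38. Of 37 oxidative phosphorylation genes 1 fell and 0 rose (median -0.13), the fall being Ppargc1a, a regulator of mitochondrial genes (2.99 naive, 1.11 with DSS, -1.43). The subunits Cox5a (77.5 naive, 75.6 with DSS) and Atp5b (73 naive, 64.7 with DSS) were under 2-fold. Of 30 fatty acid oxidation and PPAR target genes 3 rose and 2 fell (median -0.33), with Angptl4 (1.38) and Cd36 (1.29) up and Ppara (-1.03) down. None of 22 cholesterol synthesis genes passed 2-fold (median -0.28), although Insig1 was at -0.98. Of 26 glycolysis and hypoxia genes 3 rose and 0 fell (median 0.02), led by Pfkfb3, which speeds glycolysis (0.502 naive, 1.64 with DSS, 1.71). Of 24 unfolded protein and stress response genes 4 rose and 0 fell (median 0.32), among them Manf (1.17) and Chac1 (1.21), with Hspa5 at 0.62. Of 26 oxidative stress genes 8 rose and 0 fell (median 0.38), led after Nos2 by the oxidase Nox4 (0.0234 naive, 0.133 with DSS, 2.50). None of 16 reference genes passed 2-fold, and their median of -0.14 turned to 0.06 with the dimmest probes. Of 77 ribosomal protein genes 0 rose and 1 fell. That fall was the dim Rpl3l, at 0.0286 naive and not well above background with DSS (at least 1.01 lower on the log2 scale). Of 190 olfactory receptor genes, named for their role in the nose, 5 rose and 20 fell, and their median was -0.32.

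The phospholipases A2 as a family did not move one way. Of 22 measured, 3 rose, 3 fell and the median was -0.07. Among secreted members, the RNA of Pla2g2a went from 0.17 to 1.22 (7.18-fold) and that of Pla2g5 from 2.29 to 4.79 (2.09-fold). Pla2g3 went from 1.07 to 0.381 (2.82-fold lower) and Pla2g2c from 0.802 to 0.328 (2.44-fold lower). Pla2g2d (0.67), Pla2g2e (0.45), Pla2g2f (-0.21), Pla2g12a (-0.30), Pla2g12b (0.30) and Pla2g1b (-0.31) were under 2-fold, as was Pla2g10 itself (-0.77). Of the cytosolic members, Pla2g4a, the main source of arachidonic acid in cells, had 2.93 naive and 3.16 with DSS, and Pla2g4b (-0.35), Pla2g4d (-0.97) and Pla2g4f (0.23) were under 2-fold. Pla2g4c was 0.364 in naive knockout colon and not well above background with DSS, at least 25.7-fold lower. On the wildtype arrays it read 0.0239 naive and was not well above background with DSS, so the naive knockout pool stood apart from the other 3. Pla2g7, which degrades platelet-activating factor, went from 0.95 to 2.46 (2.59-fold). The calcium-independent Pla2g6 (-0.04) and Pla2g15 (0.49), Plaat3 (Pla2g16 on the array, -0.23), Pafah1b1 (-0.11) and Pafah2 (0.00) did not pass 2-fold.

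Downstream of these enzymes, 7 of 29 eicosanoid genes rose and 1 fell (median 0.04, with its sign turned to -0.16 by the dimmest probes). Ptgs2, the inducible cyclooxygenase, went from 0.157 to 0.981 (2.65), and Alox5ap, which presents arachidonic acid to 5-lipoxygenase, from 0.545 to 2.58 (2.24). Tbxas1, thromboxane synthase, had 1.52. The receptors Ptger1 (1.32), Ltb4r1 for leukotriene B4 (1.15), Ptgir for prostacyclin (1.11) and Cysltr1 (1.06) rose. Ptgs1 (-0.21), Ptges (15.5 naive, 16.1 with DSS), Alox5 (-0.19) and Ltc4s (0.04) were under 2-fold. Hpgd, which inactivates prostaglandin E2, was 8.68 naive and 4.34 with DSS (-1.0), just short of 2-fold. The inducible cyclooxygenase thus rose while most synthases did not.

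Set beside wildtype colon, which had its own naive and DSS arrays, the knockout ratios are a description only, since with 1 array per group the difference was not tested. In wildtype colon 755 of 21377 genes rose (3.53%) and 1160 fell (5.43%) at 2-fold, and 205 rose (0.959%) and 162 fell (0.758%) at 4-fold. Of genes measured in both genotypes, 433 rose in both, 38.0% of the 1140 knockout and 67.3% of the 643 wildtype rises, and 355 fell in both, 34.9% of the 1018 knockout and 35.8% of the 991 wildtype falls. Over the 19343 genes well above background on all 4 arrays, the log2 ratios of the genotypes had a Pearson correlation of 0.66 across genes, which are not independent replicates. The median log2 ratio over all measured genes was -0.13 in the knockout and -0.013 in wildtype. List medians are set against 0 here and were not corrected for that offset. Over all 47 lists the knockout median lay farther from 0 than the wildtype median in 30 and nearer to it in 17. Interferon-induced genes (1.40 in wildtype) and adipocyte genes (1.50) were among the 17. The neutrophil median was 1.20 in wildtype, the acute-phase median 1.57, the metalloproteinase median -0.03, the fibroblast median -0.02 and the collagen median -0.26. A median near 0 hides members that rose in wildtype too, such as Mmp10 (5.34), Mmp3 (5.21), Grem1 (1.22) and Pdpn (1.33).

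**Figure D5:**
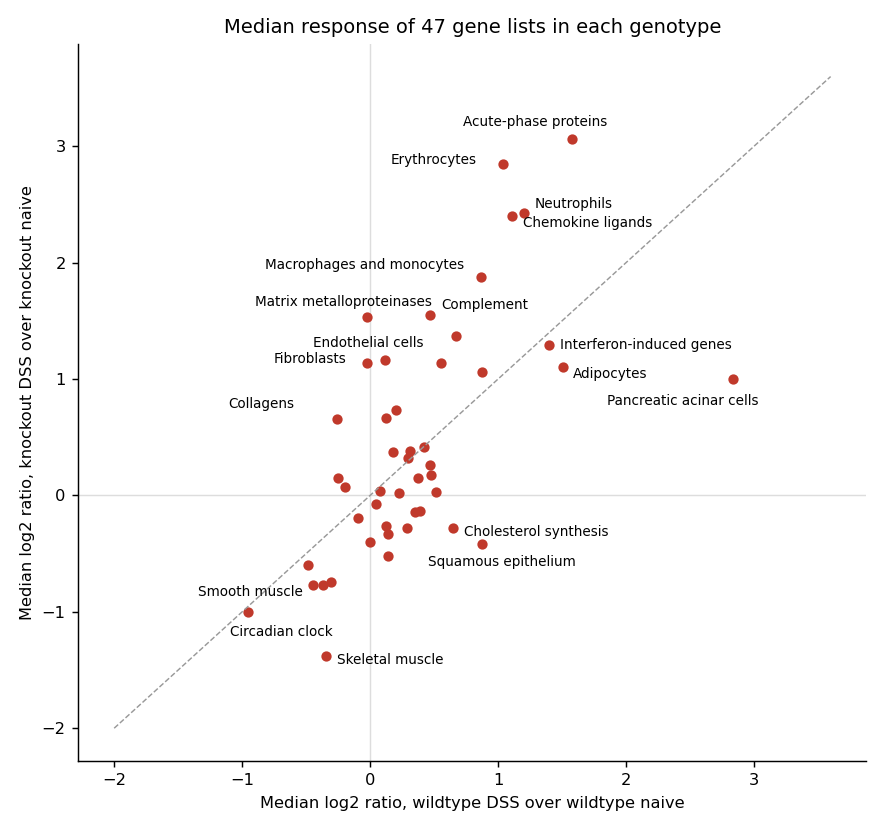
Median log2 ratio of DSS over naive for each of 47 gene lists in wildtype (x axis) and knockout colon (y axis), 1 point per list, with the line of equal medians dashed. Acute-phase proteins (3.07 in the knockout, 1.57 in wildtype) lie above the line, and pancreatic acinar genes (1.00 and 2.84) below it.

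The gap between the genotypes' ratios was ranked over genes that all 4 arrays measured above background, and genes already described were among the widest. Serpina3n had log2 ratios of 5.92 in the knockout and 2.94 in wildtype, and Lcn2 of 4.98 and 2.03. Mptx1 had -5.11 and -1.14, and Myh1 -4.46 and -1.12. Most of the others were dim. With a higher knockout ratio they included St8sia3, a sialyltransferase (0.18 and -2.76), whose wildtype naive level of 0.134 stood above 0.0172 in the knockout naive, 0.0195 in the knockout DSS and 0.0198 in the wildtype DSS pool. With a lower knockout ratio they included the serpin Serpinb3a (-1.0 and 2.24), which like Krt1 belongs to squamous epithelium, and Olfr279, an olfactory receptor (-2.89 and 0.29). For St8sia3 the gap rests on the wildtype naive pool, and for Olfr279 on the knockout naive pool, at 0.146 against 0.0197 to 0.0281 on the other arrays. Igkv9-129 (0.87 and -2.11) was dim too. The array entry S60946 (3.05 and -0.31) was brighter, at 2.42 in the knockout DSS pool. L09033 (-2.80 and 0.31) and X87746 (-3.21 and -0.16) read 1.44 and 0.955 in the knockout naive pool.

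The remaining genes with the lowest knockout ratios were few in kind. Myh8, a myosin of developing muscle, went from 1.32 to 0.0957 (13.8-fold lower) and Myh2 was at least 15.9-fold lower. Itih2, a serum protein that binds hyaluronan, went from 0.246 to 0.0217 (11.3-fold lower) and Ins1, an insulin gene, from 0.155 to 0.0174 (8.9-fold lower). The knockout naive pool stood apart for Ins1, which read 0.0289 and 0.0231 on the wildtype naive and DSS arrays. Methig1 (AB099516 on the array) was at least 12.1-fold lower, and Wnt8b, a Wnt ligand, at least 10.9-fold lower. The others carry systematic names or, like X87746 and L39085, have no gene symbol here. Among the highest ratios not yet named, Wfdc12, of the whey acidic protein family, was at least 83.1-fold higher, Chil1, a chitinase-like protein of inflamed epithelium and macrophages, at least 33.3-fold higher, and the pancreatic enzymes Cela3a (Gm13011 on the array) and Cpa1 at least 33.3-fold and 31.7-fold higher.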

How the data were processed

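Each sample is 1 one-colour expression array (Agilent mouse, Cy3) read with Agilent Feature Extraction 11.5.1.1, per the submitters' processing notes. Per the file headers, the deposited intensity of a spot is its processed signal after background subtraction on a linear scale. The deposited series table holds the same signal divided by each array's 75th percentile, as a comparison of the values showed.

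Here the processed signal was divided by the 75th percentile of each array's spots and log2 was taken. Spots of the control type or with an outlier flag were dropped, repeat spots were averaged, and the brightest kept probe stood for a gene, of which 22190 were kept. A gene counted as measured where it was well above background on the brighter knockout array. Where it was not so on the other array, that side was set to the higher of its own value and the lowest signal well above background (0.0154 naive, 0.0142 DSS), which makes the ratio a limit. Symbols came from RefSeq by accession for 16346 genes and by symbol for 1167, and 4677 kept the array's name.

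Named genes were the 15 highest and 15 lowest ratios measured on both arrays, the 12 highest and 8 lowest limits, the 10 widest gaps between genotypes in each direction and the phospholipases A2. Entries with systematic names among them were not all described. Of each list, the first genes as written and up to 4 with the highest absolute log2 ratio, whatever its direction, were named as well. Other list members are given as examples. The lists and members were chosen with earlier results of these data known. The ratio code was tested on simulated data, with changes placed only on genes far above the dim range. That test therefore does not cover changes of dim genes. Alternatives covered scaling, background correction (limma 3.58.1, R 4.3.3), filters, limits, choice of probe and flagged spots. Figures and tables used Python 3.11.15. Some members of the lists are not reported here by name.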

Additional observations from a re-analysis of the deposited data

Results flagged for a closer look

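With DSS, 9 genes moved past 2-fold in opposite directions in the knockout and in wildtype colon and were named by the rules above. The difference between the genotypes was not tested, as each group had 1 array. On the log2 scale Lce3a, a cornified envelope gene, stood at -1.85 in the knockout and 1.64 in wildtype, and Krt1, a keratin of upper epidermal layers, at -1.07 and 2.27. Both belong to squamous epithelium. Pbp2 stood at -1.20 and 1.91, and Apom, an apolipoprotein, at -1.05 and 2.14.

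In the other direction, Plekhg4 stood at 1.42 in the knockout and -2.77 in wildtype, and Rsph4a, a protein of motile cilia, at 2.08 and -1.21. The array entries X91669 (1.51 and -1.39), A_55_P2059775 (1.79 and -2.07) and A_55_P2100228 (-3.54 and 1.80, both limits) have no gene symbol here. All 9 were dim, with levels of 0.265 or less on every array. Over all genes measured in both genotypes, 27 rose in the knockout and fell in wildtype and 30 did the opposite.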

How the results depend on the processing

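No paired analysis was possible because each group had 1 array, and for the same reason none could be left out. With normexp and quantile normalization 544 genes fell at 2-fold (1113 as reported), 268 rose at 4-fold (419) and 48 fell at 4-fold (169). With no filter on dim probes 2191 fell at 2-fold, 648 rose at 4-fold and 453 fell at 4-fold. The 4-fold falls were 86 with only probes well above background on both knockout arrays, 83 with all 4 arrays and 346 with the measured dim value in place of the limit. The cause was not tested. The 2-fold rises stayed within 1.5 times 1258 under all 11 alternatives. With the dimmest probe of a gene Nkg7 stood at 1.06 (-1.21 as reported), Dclk1 at -0.79 (1.12), Nos1 at -0.43 (1.44) and Cdkn1a at 0.44 (-1.0). No list median of at least 1 in size changed sign under these alternatives. The family medians were alternatives chosen after seeing the data, and for formyl peptide receptors none was left on all 4 arrays. Dim signal limits the falls most: 83 of the 169 at 4-fold were limits.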
